A study of Mus musculus with 24 samples.

Results

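Crem, Rab30, Lepr, Klf10, Nr4a1, Nr4a2, Sik1 and Pde4b are genes known to respond to cyclic AMP or to fasting, and they were followed here in the liver and the hindleg muscle of newborn mice. They are 8 of the 18193 genes that the arrays name by a single symbol, and all of their probe sets, 26 of 45037, were taken: 6 each for Nr4a2 and Pde4b, 4 each for Crem and Lepr, 2 each for Rab30 and Sik1, and 1 each for Klf10 and Nr4a1. The genes were picked with their liver differences between low protein and normal protein, and between low protein with and without taurine, already known. Those liver differences, and the liver interaction built from them, are therefore described with a standard error and no test. Levels are log2 expression values, so that a difference of 1 is a doubling.

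All pups were C57BL/6 newborns on day 0 after birth, and the mothers' diets ran from day 1 of pregnancy to birth. Mothers ate either a diet with 20% casein, called normal protein or NP, or one with 8% casein, called low protein or LP. In NPtau and LPtau the same diets came with drinking water that held 1% taurine. Each tissue and diet had 3 arrays, 24 in all, and this number limits the precision. The labels call the arrays of a group biological replicates and do not say whether they came from separate dams or whether pups were pooled, so the spread behind each p-value may be that of pups of 1 litter.

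Cyclic AMP is the second messenger by which glucagon and adrenaline tell a hepatocyte that glucose is short, as happens when the placental supply ends at birth. It activates protein kinase A, which phosphorylates the transcription factor CREB, and CREB binds cAMP response elements in the promoters of its targets together with CRTC coactivators. Several of the genes described here are such targets and feed back on the signal. Crem can give rise to the repressor ICER, Sik1 is a kinase that keeps CRTC out of the nucleus, and Pde4b is a phosphodiesterase that breaks down cyclic AMP. Nr4a1 and Nr4a2 are orphan nuclear receptors and immediate early genes, switched on within minutes of a stimulus. Klf10 is a zinc finger transcription factor with a role in liver glucose metabolism. Lepr is the receptor of leptin and Rab30 is a small GTPase of the Golgi, and fasting is known to induce both in adult liver.

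The letters of a promoter show where CREB could in principle bind. Windows of 4 of the 8 genes (Nr4a1, Nr4a2, Pde4b and Lepr) were read from the RefSeq promoter table (GRCm38.p6), 8 windows in all. It held no window for Rab30, Klf10 and Sik1, and Crem was left out of the search. The 250 bases before each transcription start were searched on both strands for the full cAMP response element TGACGTCA and for its short form TGACG, which reads CGTCA on the other strand and is part of the full element. None of the 8 windows held the full element, which 1.55% of 32851 such windows hold. The short form stood 4 times before Nr4a1 and 4 times before Nr4a2, and once in the most upstream of the 4 Pde4b windows read. That window lies inside the gene, which begins further upstream at chr4:102087332. It was found in neither Lepr window and in none of the other 3 Pde4b windows. Over all windows, 17.8% held it at least once, and 45 windows (0.137%) held it 4 or more times. The 3 windows that hold it are printed 5′ to 3′ on the gene's strand, with the short form in capitals, and a match of these letters is no evidence of binding.
Nr4a1, chr15:101266596-101266845, plus strand: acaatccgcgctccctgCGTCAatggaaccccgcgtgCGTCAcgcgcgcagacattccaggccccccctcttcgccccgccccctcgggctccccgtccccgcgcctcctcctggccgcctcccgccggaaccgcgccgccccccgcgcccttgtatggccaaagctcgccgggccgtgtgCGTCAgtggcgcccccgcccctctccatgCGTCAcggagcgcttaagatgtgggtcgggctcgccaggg
Nr4a2, chr2:57124004-57124253, minus strand: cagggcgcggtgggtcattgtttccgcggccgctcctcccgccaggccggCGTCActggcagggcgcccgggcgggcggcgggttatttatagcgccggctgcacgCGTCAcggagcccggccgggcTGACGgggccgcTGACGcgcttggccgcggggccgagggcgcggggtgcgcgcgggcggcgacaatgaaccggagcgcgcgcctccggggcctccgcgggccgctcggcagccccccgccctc
Pde4b, chr4:102421305-102421554, plus strand: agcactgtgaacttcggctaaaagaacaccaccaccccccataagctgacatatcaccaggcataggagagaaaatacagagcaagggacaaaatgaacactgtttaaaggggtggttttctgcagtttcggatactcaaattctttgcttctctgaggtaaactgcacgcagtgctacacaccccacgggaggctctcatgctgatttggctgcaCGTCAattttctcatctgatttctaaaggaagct
Counted back from the start, the elements of Nr4a1 begin at -233, -213, -69 and -40, those of Nr4a2 at -200, -144, -123 and -111, and that of Pde4b at -34. The Nr4a windows are shown because the brightest probe sets of these genes behaved unlike the others in liver. That of Pde4b is shown because it was the remaining one with a match.

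Signs of tissue identity and of the whole data set were checked before the genes were read. Hepatocyte markers had a median percentile of 99.97 among all liver probe sets, and skeletal muscle markers one of 99.93 among all muscle probe sets. With limma, 556 of 45037 liver probe sets (1.23%) passed an adjusted p of 0.05 for LP against NP. This count rested on single arrays, since it was 3685 without LP replicate 1, 9 without LP replicate 2, 16 without LP replicate 3, 14 without NP replicate 1, 253 without NP replicate 2, 29 without NP replicate 3, 357 without LPtau replicate 1 and 292 without LPtau replicate 2. Pups of both sexes were in every group, with 1 female and 2 males under NP and LPtau and 2 females and 1 male under LP and NPtau in each tissue, by Xist and Y-linked genes. In a bulk tissue, fewer cells of a type and less RNA per cell cannot be told apart.

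In liver, 6 of the 8 genes had their lowest mean in LP pups on their brightest probe set: Rab30, Crem, Lepr, Klf10, Pde4b and Sik1. The difference was 9.35-fold for Rab30, 9.48-fold for Lepr, 6.16-fold for Crem and 3.11-fold for Klf10 on the brightest probe set of each. Nr4a1 and Nr4a2 had their lowest mean in NP pups on their brightest probe set. Of all 26 probe sets, 17 had a negative LP minus NP difference, and in 12 all 3 LP values lay below all 3 NP values, a pattern that 11.0% of all liver probe sets showed. In 3 the LP values lay above, all of them Nr4a2, where 16.8% of all probe sets did. Because the genes were chosen on this contrast, the counts describe them and support nothing further. Of the 26 probe sets, 16 had a mean above the liver median, and the other 10 were dim, between 3.31 and 5.40 on every array.

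Rab30 was bright in liver, with probe set 1426452_a_at at the 94.2nd percentile of all liver probe sets. It read 11.34, 11.40 and 10.64 in the NP livers and 7.88, 8.00 and 7.82 in the LP livers. The LP values were tightly grouped (mean 7.90, SD 0.09, n = 3) and lay far below every NP value, a difference of -3.23 (SE 0.52). With taurine, the LPtau livers read 11.38, 10.34 and 11.21, all above LP and 1 of them below every NP value, and LPtau minus LP was 3.08 (SE 0.52). The NPtau livers spread widely, at 10.34, 7.90 and 9.94, and NPtau replicate 2 stood at the LP level. The second Rab30 probe set, 1440325_at, read 6.92, 8.10 and 6.51 under NP and 6.07, 4.70 and 5.30 under LP (difference -1.82, SE 0.63). On that probe set the LPtau values of 6.05, 6.13 and 6.63 overlapped those of LP, with a difference of 0.91 (SE 0.63).

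Crem, read by 1449037_at, stood at 8.51, 8.11 and 8.73 in NP livers and at 6.61, 5.19 and 5.68 in LP livers. All LP values were below those of the other 3 diets, and the difference from NP was -2.62 (SE 0.54). LPtau livers read 8.22, 7.12 and 9.37, which was 2.41 (SE 0.54) above LP with no overlap, and NPtau livers read 7.06, 7.36 and 8.41. A second Crem probe set, 1418322_at, gave -1.56 (SE 0.53) for LP minus NP and 1.62 (SE 0.53) for LPtau minus LP. The other 2 Crem probe sets, 1430598_at and 1430847_a_at, were dim (percentiles 5.77 and 21.2), and their LP minus NP differences were -0.40 (SE 0.11) and -0.08 (SE 0.09). Which Crem transcripts, activator or ICER repressor, each probe set reads is not given in the sources used here.

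Klf10 had an SD between 0.13 and 0.52 within the diets, and its difference had a smaller standard error than those of Rab30, Crem and Lepr. Its single probe set, 1416029_at, read 8.47, 8.22 and 8.41 under NP, 7.93, 8.17 and 8.23 under NPtau, 6.33, 7.02 and 6.85 under LP, and 8.02, 8.32 and 9.02 under LPtau. The LP livers stood apart from all 9 others, while NP, NPtau and LPtau overlapped. LP minus NP was -1.64 (SE 0.24) and LPtau minus LP was 1.72 (SE 0.24).

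Lepr was read by 3 probe sets above the liver median, and they had the same order of diets. On 1456156_at the NP livers read 9.50, 9.66 and 8.94 and the LP livers 7.69, 5.63 and 5.04, a difference of -3.24 (SE 0.77). LP replicate 1 was the highest LP liver on all 3 probe sets, and without it the difference on 1456156_at was -4.03. LPtau livers read 7.73, 7.13 and 9.55 and overlapped LP, so that LPtau minus LP was 2.02 (SE 0.77), and 1.31 without LPtau replicate 3. Probe sets 1425644_at and 1425875_a_at gave LP minus NP differences of -3.19 (SE 0.77) and -2.23 (SE 0.63). The dim probe set 1425873_a_at, at the 20.4th percentile, gave 0.27 (SE 0.17).

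Markers of other cell types were read for LP minus NP. With limma, 1.23% of all liver probe sets were called in this contrast, and 21.0% had an unadjusted p under 0.05. Of 7 B cell progenitor markers, 6 had a negative LP minus NP difference. With limma, Rag1 fell by 2.01 (SE 0.28; adjusted p = 0.0166) and Ebf1 fell by 1.90 (SE 0.29; adjusted p = 0.0213), while Pax5 was the 1 positive marker at 0.28 (SE 0.10). The mean of the 7 markers, relative to the NP mean, ran from -1.34 to -0.88 in LP livers, from -0.79 to 0.05 in LPtau livers and from -0.06 to 0.01 in NPtau livers. Among 6 endothelial markers, Pecam1 fell by 0.80 (SE 0.13; adjusted p = 0.0266), Esam fell by 1.07 (SE 0.18; adjusted p = 0.0279) and Cdh5 fell by 1.11 (SE 0.22; adjusted p = 0.0433) with limma. Stab2 was negative as well, Kdr and Tek were positive, and the mean of the list ran from -0.55 to -0.49 in LP livers. Each of these 5 calls was lost without NP replicate 1, NP replicate 3, LP replicate 2 or LP replicate 3. Those of Pecam1 and Esam were also lost without NP replicate 2, and over all 20 alternatives Rag1 and Ebf1 lost the call in 4, Pecam1 in 5, Esam in 6 and Cdh5 in 10, with negative differences throughout. Of the granulocyte markers 7 of 7 were negative (median -0.58), of the stellate cell and fibroblast markers 6 of 7 (median -0.38) and of the erythroid markers 4 of 5 (median -0.53), with 0 calls by limma and an unadjusted p under 0.05 in 6, 2 and 2 of them. Of 7 macrophage markers 4 were negative, and Marco rose by 1.27 (SE 0.23; adjusted p = 0.0308 with limma), a call lost in 6 of 20 alternatives. Of 3 measured fat cell markers 2 were negative and 1 positive (median -0.20). Among them Fabp4 fell by 1.27 (adjusted p = 0.0177 with limma), a call lost in 4. The mean of 7 hepatocyte markers stayed between -0.02 and 0.00 in LP livers. The part of these cells in the levels of Lepr or of the other genes was not tested.

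Pde4b and Sik1, which act against cyclic AMP signalling, had smaller differences. Pde4b probe set 1422473_at read 7.16, 6.29 and 6.17 under NP, 5.44, 5.74 and 6.15 under LP, and 7.20, 7.39 and 6.62 under LPtau. The NPtau livers read 6.36, 7.53 and 5.92 and overlapped those of LP. LP minus NP was -0.76 (SE 0.40) and was -0.45 without NP replicate 1, the highest NP liver, while LPtau minus LP was 1.29 (SE 0.40). Probe set 1422474_at read 7.00, 6.21 and 6.28 under NP against 5.06, 5.39 and 5.20 under LP, with a difference of -1.28 (SE 0.33). On it LPtau was 1.54 (SE 0.33) above LP, and the LP livers lay below those of every other diet. The third Pde4b probe set above the median, 1442700_at, gave -0.47 (SE 0.47), and the other 3, which were dim, lay between -0.02 and 0.07. Sik1 on 1419766_at read 6.80, 6.16 and 6.56 under NP and 6.06, 6.04 and 6.01 under LP, so that LP minus NP was -0.47 (SE 0.17) and LPtau minus LP was 0.33 (SE 0.17). The NPtau livers read 5.92, 6.38 and 6.06 for Sik1 and overlapped those of LP, so a low level was not particular to LP. The second Sik1 probe set, 1459601_at, was dim, and its diet means spanned 0.22.

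The Nr4a receptors, with 4 short elements in each printed window, did not have the order of the genes described so far on their brightest probe sets. Nr4a1 on 1416505_at read 6.87, 6.54 and 6.97 under NP, 6.46, 8.34 and 6.58 under NPtau, 8.33, 6.96 and 7.06 under LP, and 8.40, 9.43 and 6.96 under LPtau. Its high values were on 1 NPtau, 1 LP and 2 LPtau arrays, and no diet was high on all 3. LP minus NP was 0.66 (SE 0.64), and 0.22 without LP replicate 1. LPtau minus LP was 0.81 (SE 0.64), 0.23 without LPtau replicate 2 and 1.46 without LPtau replicate 3. Nr4a2 was low, and on 1433422_at the NP livers read 5.84, 5.82 and 5.87 and the LP livers 5.88, 6.33 and 6.65, a difference of 0.44 (SE 0.17). On 1433423_at the LP livers read 5.73, 6.18 and 6.07 against 5.18, 5.41 and 5.18 under NP, a difference of 0.74 (SE 0.15), and on 1450749_a_at it was 0.34 (SE 0.15). LPtau minus LP on these 3 Nr4a2 probe sets was -0.35 (SE 0.17), -0.35 (SE 0.15) and -0.16 (SE 0.15). The other 3, all below the liver median, did not have this order. On 1447863_s_at the LP livers read 4.98, 4.97 and 5.04, all below the LPtau livers at 5.33, 5.40 and 5.32. On 1455034_at the LPtau livers (4.01 to 4.14) also lay above the LP livers (3.61 to 3.97), and on 1450750_a_at these diets overlapped.

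**Figure D1:**
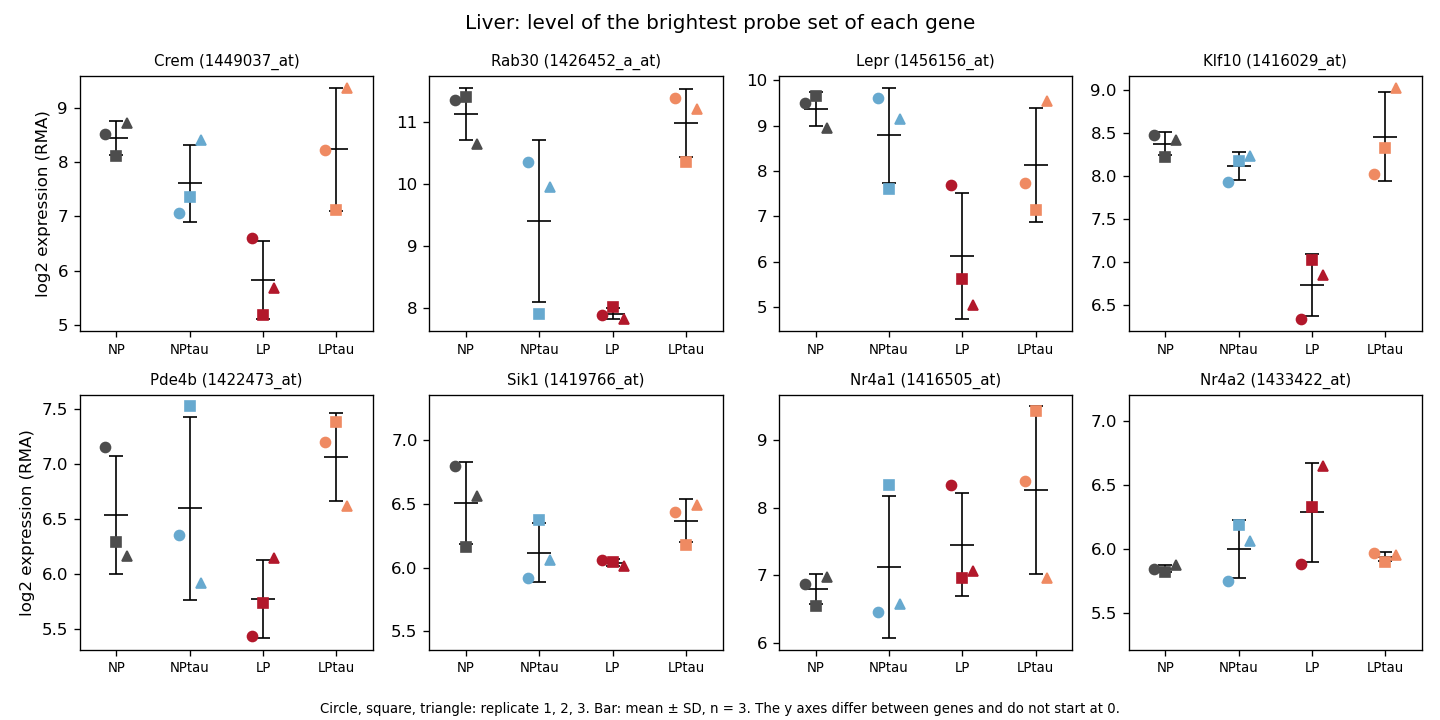
Log2 expression in liver of the brightest probe set of each gene, by maternal diet, with circle, square and triangle for replicates 1, 2 and 3 and a bar for mean ± SD (n = 3); the y axes differ between genes and do not start at 0. LP livers are lowest for Crem and Klf10. For Rab30 they read 7.82 to 8.00, with NPtau replicate 2 inside that range. Nr4a1 is high on 1 NPtau, 1 LP and 2 LPtau arrays, up to 9.43 in LPtau replicate 2.

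The 12 livers were then read array by array, because Nr4a1 shares its high arrays with other immediate early genes. Fos, a component of the AP-1 transcription factor, read 11.19 in NPtau replicate 2, 10.91 in LP replicate 1, and 11.02 and 10.94 in LPtau replicates 1 and 2, and 6.71 to 8.36 in the other 8 livers. Egr1, a zinc finger factor of the same class, read 10.28, 10.41, 11.22 and 10.59 in those 4 livers and 6.40 to 8.29 in the others. Nr4a1 was between 8.33 and 9.43 in the same 4 livers and between 6.46 and 7.06 in the others. The gluconeogenic genes were low in 2 of the 4. Pck1 read 10.22 in NPtau replicate 2 and 10.74 in LP replicate 1, against 12.23 or more elsewhere, and G6pc read 12.22 and 10.70 there, against 13.04 or more elsewhere. NPtau replicate 2 was also the lowest NPtau liver for Rab30 and Lepr. Within the LP diet, replicate 1 was the lowest liver for Klf10. For Crem it was the highest on 1449037_at and the lowest on 1418322_at, and for Rab30 the middle one on 1426452_a_at and the highest on 1440325_at. Handling and time from birth to sampling are not given per animal, and their part in these levels was not tested.

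**Figure D2:**
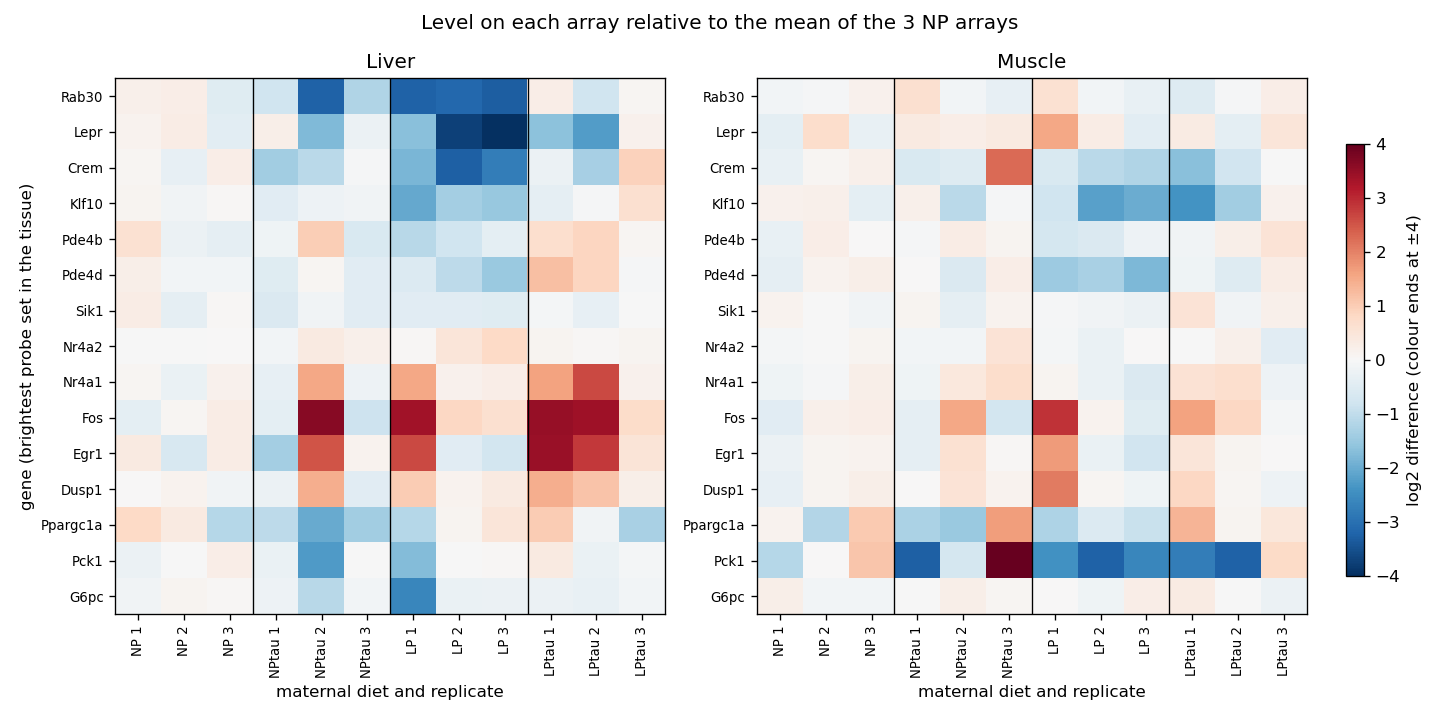
Log2 level of each gene on each array relative to the mean of the 3 NP arrays of its tissue, for the 8 genes and 7 companion genes, with maternal diet and replicate on the x axis and colour from -4 to 4. In liver Rab30, Lepr, Crem and Klf10 are blue across the LP arrays, whereas Nr4a1, Fos, Egr1 and Dusp1 are red on NPtau 2, LP 1, LPtau 1 and LPtau 2.

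Taurine was given on both protein levels, and its effect under normal protein was not used to choose the genes, although it shares the NP arrays with a contrast that was. With limma, 0 of 26 probe sets passed for NPtau against NP in liver (0% of all probe sets), and 2 had an unadjusted p under 0.05, where 1384 of 45037 did. These were Rab30 1426452_a_at, with a difference of -1.73 (95% confidence interval -2.89 to -0.58; adjusted p = 0.998) and Sik1 1419766_at, with -0.39 (-0.76 to -0.03; adjusted p = 0.998). The Rab30 value was -0.99 without NPtau replicate 2, and the Sik1 value was -0.25 without NP replicate 1. For Klf10 the interval ran from -0.79 to 0.27. The -1.64 between LP and NP lay outside it, but that value was used to choose the gene and may be overstated. For Crem (-0.84, interval -2.04 to 0.36) and Lepr (-0.58, interval -2.27 to 1.11) the intervals were wider.

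Under low protein, taurine went with higher levels of most of these genes in liver, as described for each above. Of the 26 probe sets 19 had a positive LPtau minus LP difference, and in 10 all 3 LPtau values lay above all 3 LP values, a pattern of 5.60% of all probe sets. With limma 0% of all liver probe sets passed an adjusted p of 0.05 in this contrast, and 3179 had an unadjusted p under 0.05. The difference between the protein effect with taurine and that without it was 4.81 (SE 0.74) for Rab30, 3.25 (SE 0.77) for Crem, 2.60 (SE 1.08) for Lepr, 1.98 (SE 0.34) for Klf10 and 1.23 (SE 0.57) for Pde4b on the brightest probe sets. It was 0.72 (SE 0.23) for Sik1, 0.48 (SE 0.90) for Nr4a1 and -0.50 (SE 0.24) for Nr4a2. These values were also used in the choice of the genes and carry no test.

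With taurine on both sides, low protein was compared with normal protein as LPtau against NPtau, which shares the LPtau arrays with a contrast used to choose the genes. With limma 0 of 26 probe sets passed in liver (0% of all probe sets), and 2 had an unadjusted p under 0.05, where 2002 of all probe sets did. Rab30 1426452_a_at was 1.58 higher in LPtau (interval 0.43 to 2.74; adjusted p = 0.998 with limma), opposite in sign to its LP minus NP difference, and 0.84 higher without NPtau replicate 2. The dim Nr4a2 probe set 1455034_at was 0.23 higher (interval 0.01 to 0.46). Klf10 differed by 0.34 (interval -0.19 to 0.87), Crem by 0.63 (interval -0.57 to 1.82) and Lepr by -0.65 (interval -2.33 to 1.04). The lower ends of the Klf10 and Crem intervals lay above their LP minus NP differences. Those differences were used to choose the genes and may be overstated, so the comparison supports nothing further. A p that misses the threshold does not show that the diets were alike.

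**Figure D3:**
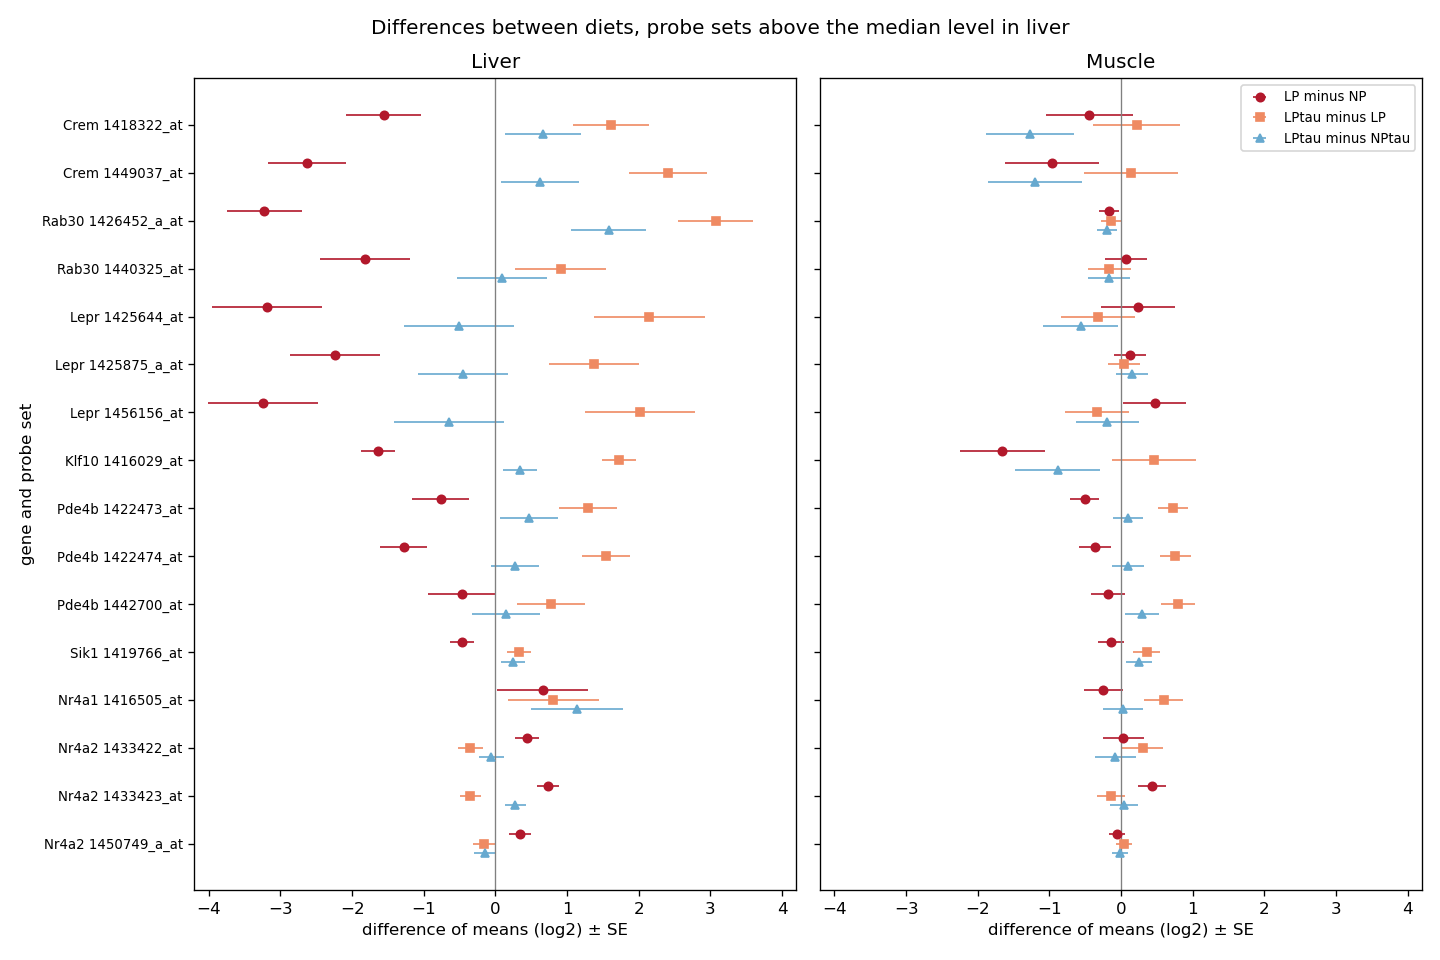
Differences of diet means (log2) with SE for the 16 probe sets above the liver median, in liver and in muscle, for LP minus NP, LPtau minus LP and LPtau minus NPtau. In liver Rab30 1426452_a_at runs from -3.23 to 3.08 between the first 2 differences, and in muscle its differences lie between -0.20 and -0.14.

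The wider pathways were read from lists of genes that were drawn up with earlier results of these data known. Of 31 measured genes of cAMP signalling machinery, 0 passed for LP against NP in liver with limma (12 positive, 19 negative, median -0.07, against a median of 0.04 over all probe sets), and 8 had an unadjusted p under 0.05, a level that 21.0% of all probe sets (9443) reached. Prkar2a, a regulatory subunit of protein kinase A, differed by 0.65 (SE 0.14; adjusted p = 0.05002 with limma, just above the threshold). Pkig, an inhibitor of protein kinase A, differed by -0.42 (SE 0.10; adjusted p = 0.0706). Pde4d, the closest relative of Pde4b on the list, read 7.85, 7.50 and 7.50 under NP, 7.06, 6.57 and 6.13 under LP, and 8.82, 8.46 and 7.56 under LPtau. LP minus NP was -1.03 (SE 0.32; adjusted p = 0.116 with limma) and LPtau minus LP was 1.69 (SE 0.32; adjusted p = 0.172).

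Of 19 immediate early genes 1 passed for LP against NP in liver with limma, where 1.23% of all probe sets did. Fosl2, an AP-1 component, fell by 1.40 (SE 0.29; adjusted p = 0.0488), from 7.88, 7.18 and 7.99 under NP to 6.75, 6.14 and 5.96 under LP. It kept the call in 7 of 20 alternatives, over which its adjusted p ran from 0.0148 to 0.171 and its difference from -1.65 to -1.24. LPtau livers read 7.12, 7.62 and 7.94 for Fosl2, and LPtau minus LP was 1.28 (SE 0.29; adjusted p = 0.300 with limma). Over the list, 11 genes were positive and 8 negative for LP minus NP (median 0.23). With limma an unadjusted p under 0.05 was reached by 1 higher and 3 lower genes, against 21.0% of all probe sets. The share in the list does not stand out from that background.

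Of 23 measured fasting and glucagon target genes of liver 0 passed for LP against NP with limma (8 positive, 15 negative, median -0.17). An unadjusted p under 0.05 was reached by 3 of the 23, a smaller share than the 21.0% of all probe sets. These were Gadd45b at 1.18 (SE 0.43), Igfbp1, which binds insulin-like growth factors, at -0.23 (SE 0.08), and Cebpb, a transcription factor of the hepatocyte, at -0.51 (SE 0.19). Ppargc1a, the coactivator that CREB induces in fasting, read 10.24, 9.79 and 8.28 under NP and 8.30, 9.54 and 9.91 under LP, with full overlap. Of 10 genes of leptin receptor signalling 0 passed with limma (2 positive, 8 negative, median -0.27), and 4 had an unadjusted p under 0.05, against the same 21.0%. Socs3, which leptin induces and which blocks the receptor, read 8.25, 9.38 and 7.61 under NP and 7.87, 6.49 and 6.51 under LP (-1.46, SE 0.51; adjusted p = 0.149). Leprot, a gene that shares its start with Lepr, differed by -0.52 (SE 0.14; adjusted p = 0.0911). In the other liver contrasts 0 genes of these 4 lists passed. The fasting list had 4 positive and 19 negative genes for NPtau minus NP (median -0.39, against 0.02 over all probe sets). Its mean relative to NP ran from -0.67 to -0.28 in NPtau livers and from -0.71 to 0.14 in LP livers, against -0.11 to 0.06 in NP livers. For the interaction 20 of its genes were positive and 3 negative (median 0.58). The cause was not tested.

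The genes whose level ran most like that of each gene over the 12 livers were ranked by Pearson's r among 16296 others. The r includes the diet differences themselves and is given as a ranking only. For Crem they were Fabp1, the liver fatty acid binding protein (0.940), Acsl5, an acyl-CoA synthetase (0.931), and Prkx, a kinase related to protein kinase A (0.928). For Rab30 they were Ralgapa2 (0.952), Jmjd1c (0.945) and Gde1 (0.927), and for Klf10 Prnp, the prion protein (0.941), Tkfc (0.938) and Septin11 (0.937). For Lepr they were Lrmp (0.977), Irf9 (0.969) and Pou2af1 (0.969), of which Lrmp and Pou2af1 are known from lymphocytes. For Nr4a1 the highest was Fos (0.933), before Ddi1 (0.926) and Dusp6 (0.909). For Pde4b they were Hilpda (0.911), Csrp1 (0.886) and Gcnt2 (0.864), and for Sik1 Btc (0.909), Kcne3 (0.902) and Jade1 (0.896). For Nr4a2 they were Zfp652os (0.966), Xkr6 (0.960) and Iqcf1 (0.957).

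In muscle none of the contrasts was used to choose the genes. The arrays of muscle were normalized apart from those of liver, so levels were not compared between the tissues. With limma 0 of 26 probe sets passed for LP against NP, where 0.0178% of all probe sets (8) did. An unadjusted p under 0.05 was reached by 3 of the 26 and by 4643 of 45037. In 3 of the 26 all LP values lay below all NP values, where 10.2% of all probe sets showed this, and in 1, of Nr4a2, they lay above, against 8.38%. Neither share stands out from that background.

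Klf10 had the largest LP minus NP difference of the brightest muscle probe sets, and it missed the threshold. It read 8.45, 8.45 and 7.88 under NP and 7.46, 6.08 and 6.26 under LP, with no overlap, a difference of -1.66 (SE 0.59, interval -2.97 to -0.35; adjusted p = 0.330 with limma). NPtau muscle read 8.45, 7.17 and 8.20. LPtau muscle spread from 5.86 through 6.88 to 8.44, and LPtau minus LP was 0.46 (interval -0.85 to 1.76; adjusted p = 0.766), where in liver the LPtau values had all been above those of LP. Over the alternatives the adjusted p of LP minus NP ran from 0.166 to 0.649.

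Pde4b was the gene with the smallest p for LPtau against LP in muscle. On 1422473_at it read 7.47, 8.03 and 7.77 under NP, 7.71, 8.06 and 7.85 under NPtau, 7.04, 7.16 and 7.54 under LP, and 7.61, 7.98 and 8.31 under LPtau. All LPtau values lay above all LP values, by 0.72 (SE 0.21; adjusted p = 0.253 with limma), and LP minus NP was -0.51 (SE 0.21; adjusted p = 0.413). Probe sets 1422474_at and 1442700_at gave 0.76 (SE 0.22) and 0.79 (SE 0.24) for LPtau minus LP (adjusted p = 0.259 and 0.263). In this contrast 0 of 26 probe sets passed, against 0.0133% of all (6). In 4 of the 26 all LPtau values lay above all LP values, 3 of Pde4b and 1 of Nr4a2, against 8.74% of all probe sets. At an unadjusted p under 0.05 there were 3, all of Pde4b, against 5109 of all probe sets. Pde4d was also lowest under LP in muscle, at 8.89, 9.40 and 9.50 under NP, 7.82, 7.96 and 7.46 under LP, and 9.10, 8.76 and 9.55 under LPtau (LP minus NP -1.52, SE 0.26; adjusted p = 0.0725 with limma).

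Crem in muscle was marked by 1 array. On 1449037_at it read 6.24, 6.60 and 6.73 under NP, 5.90, 5.45 and 5.33 under LP, 4.86, 5.75 and 6.49 under LPtau, and 5.92, 5.99 and 8.79 under NPtau. LP minus NP was -0.96 (interval -2.41 to 0.49; adjusted p = 0.713 with limma) with no overlap. NPtau replicate 3 stood apart on 1418322_at as well, at 7.76 beside 4.87 and 5.44. NPtau minus NP on 1449037_at was 0.38 (interval -1.07 to 1.83), and -0.57 without that array. The same array was the highest muscle for Nr4a3, the third member of the Nr4a family (11.18), for Pck1 (11.38), and for the fat cell markers Adipoq (13.34), Cidec (9.51) and Fabp4 (13.86).

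Fat cell markers varied over the muscle samples, in part along with Klf10 and Crem. The mean of the 3 measured markers, relative to NP, was -2.74, -0.46 and 1.92 in the NPtau arrays, -0.69, -1.59 and -1.84 in the LP arrays, and -3.25, -2.91 and 0.17 in the LPtau arrays. The lowest LPtau muscle for Klf10 and Crem was replicate 1 and the highest was replicate 3, as for these markers. In the NPtau arrays Crem had that order too, but Klf10 was highest in replicate 1, where the markers were lowest. With limma 0 of the 3 markers passed for LP against NP, and 0 had an unadjusted p under 0.05, while in each all LP values lay below all NP values. Skeletal muscle markers had negative LP minus NP differences in 7 of 7 cases (median -0.30) and endothelial markers in 6 of 6 (median -0.42), while all 4 cartilage markers were positive (median 2.23), with the mean of the list from -1.17 to 3.89 in LP muscle. With limma 0 markers of these lists passed, and 2, 1 and 1 had an unadjusted p under 0.05, where 10.3% of all muscle probe sets did. The part of these cells in the muscle levels of Klf10 and Crem was not tested.

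For the other genes 0 probe sets passed with limma in muscle. Rab30, so bright in liver, was dim there, with both probe sets between 4.28 and 5.45 on every array and below the median of all muscle probe sets. Its LP minus NP difference on 1426452_a_at was -0.16 (interval -0.47 to 0.14). Lepr on 1456156_at read 5.26, 6.35 and 5.38 under NP and 7.20, 5.95 and 5.25 under LP, a difference of 0.47 (interval -0.51 to 1.44). The intervals of Rab30 and Lepr did not reach down to their liver differences, which were used to choose the genes and may be overstated. A dim probe set such as that of Rab30 could hardly show such a fall. Nr4a1 was bright in muscle (93.1st percentile) and read 9.02, 9.12 and 9.40 under NP, 9.28, 8.90 and 8.61 under LP, and 9.76, 9.84 and 8.98 under LPtau. LPtau minus LP was 0.60 (SE 0.28; adjusted p = 0.447 with limma). Sik1 on 1419766_at lay between 6.46 and 7.39, with LP minus NP at -0.14 (interval -0.55 to 0.26). Nr4a2 on its brightest muscle probe set, 1447863_s_at, lay between 5.95 and 6.94 with -0.10 (interval -0.55 to 0.35), and on 1433423_at it differed by 0.43 (interval 0.01 to 0.86; adjusted p = 0.470), with all LP values above all NP values.

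**Figure D4:**
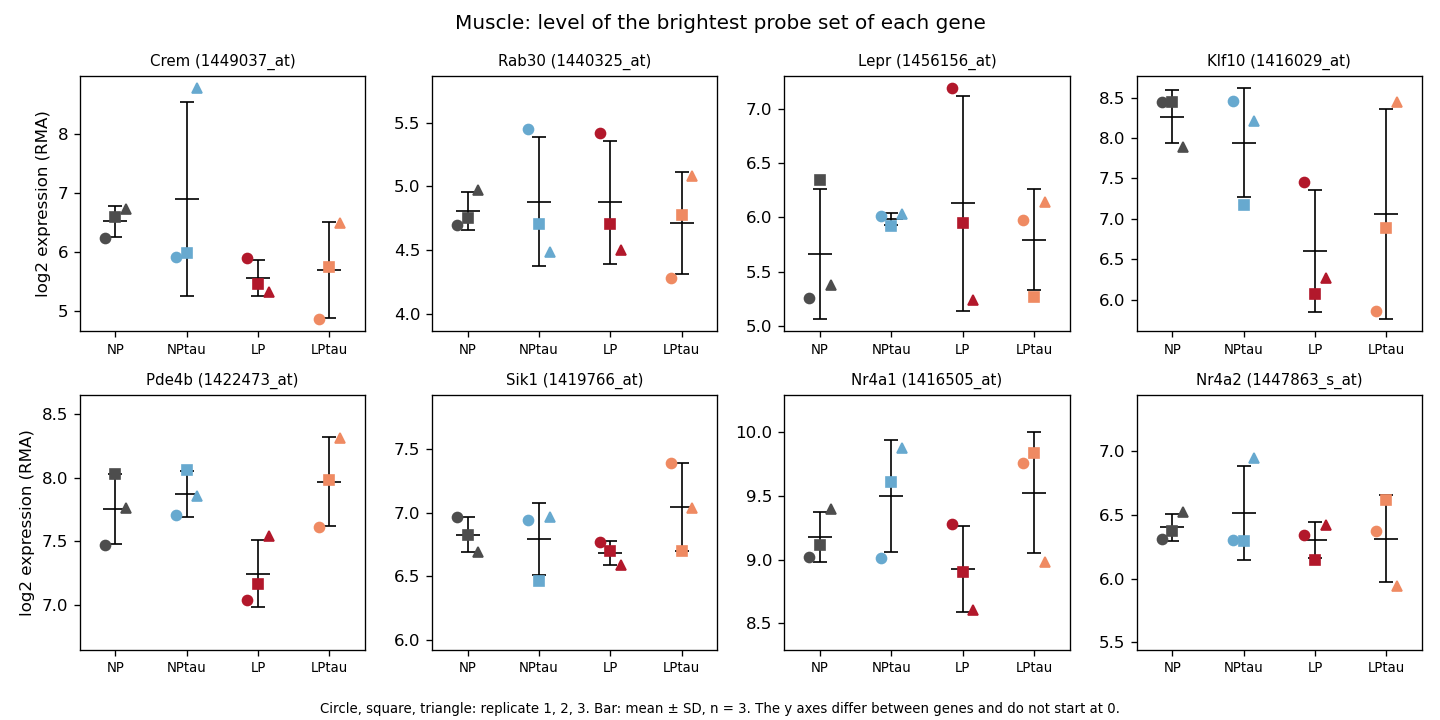
Log2 expression in muscle of the brightest muscle probe set of each gene, by maternal diet, with symbols for replicates 1 to 3 and a bar for mean ± SD (n = 3); the y axes differ between genes and do not start at 0. Klf10 has all LP values (6.08 to 7.46) below all NP values, Pde4b has all LPtau values above all LP values, and Crem has NPtau replicate 3 at 8.79.

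Neither taurine under normal protein, nor low protein with taurine on both sides, nor the interaction gave a call for these genes in muscle. With limma 0 of 26 probe sets passed for NPtau against NP (0% of all probe sets, smallest adjusted p = 1.00), with 0 at an unadjusted p under 0.05 where all probe sets had 370. For LPtau against NPtau 0 of 26 passed (0% of all, smallest adjusted p = 0.694), with 0 unadjusted where all probe sets had 2847. For the interaction 0 of 26 passed (0% of all, smallest adjusted p = 0.839), with 0 unadjusted where all probe sets had 2675. Of the 4 pathway lists 0 genes passed in any muscle contrast with limma. The fasting list had 8 positive and 15 negative genes for LP minus NP in muscle (median -0.25). Its mean relative to NP ran from -0.61 to -0.53 in LP muscle and from -0.17 to 0.19 in NP muscle. The smallest p on the fasting list for LP against NP was that of Pdk4, the kinase that holds back glucose oxidation, at -3.02 (SE 0.62; adjusted p = 0.10004), with 10.18, 11.09 and 10.67 under NP and 7.83, 7.90 and 7.16 under LP. Angptl4, an inhibitor of lipoprotein lipase, followed at -2.46 (SE 0.69; adjusted p = 0.205).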

How the data were processed

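The 24 Affymetrix arrays, 1 per sample, were hybridised with biotin-labelled total RNA of liver or hindleg muscle. For the deposited log2 values the submitters' processing notes name RMA and R 2.7.0, and also MAS5 without a role. Liver and muscle were normalized separately, per the labels' design text. The values ran from 2.75 to 15.01 and were used as deposited. Of 45101 probe sets, 64 controls were left out and 45037 tested. Of these, 34945 had 1 gene symbol in the platform annotation, 932 several and 9160 none. A separate limma fit (version 3.58.1, R 4.3.3) was made on the 12 arrays of each tissue (lmFit, contrasts.fit, eBayes, a mean per diet), with Benjamini-Hochberg adjustment over all probe sets within a contrast and a call at an adjusted p under 0.05. Intervals are 95% confidence intervals of limma. An exact test of 3 against 3 arrays cannot go below 0.1. The script was tested on simulated data. All probe sets of the 8 genes entered the counts, and values are given for a part of them. For lists and companion genes the probe set with the highest mean in the tissue was used, with values for list genes that passed and otherwise up to 3 with the smallest p, and companions shown for context were picked after their values were seen. The members and lists were chosen with earlier results of these data known, so neither is independent evidence. Percentiles rank a probe set's mean among all those of its tissue. Same-numbered arrays of a tissue did not deviate together on average, so the replicate number was not used as a block in the main fit. Single pairs had correlations from -0.236 to 0.356 in liver and from -0.312 to 0.252 in muscle. Alternatives were the replicate block, a filter at the median level, 1 probe set per gene, cyclic loess, quantile normalization, sex as a covariate, eBayes with trend and robust, only the diets compared, and leaving out each array. Figures were drawn with matplotlib 3.10.9. Scanner files were not used here.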

Additional observations from a re-analysis of the deposited data

Results flagged for a closer look

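Taurine went with opposite differences of Rab30 in liver under the 2 protein levels, each without overlap of the arrays. On probe set 1426452_a_at NPtau minus NP was -1.73 and LPtau minus LP was 3.08. The difference between these 2 effects was not tested, since the gene was chosen on values that enter it. Without NPtau replicate 2, the liver that also had high Fos and low Pck1, NPtau minus NP was -0.99.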

How the results depend on the processing

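Of 182 differences of the 8 genes that had a test, 0 passed the threshold in the main setting or in any alternative. Over all 260 differences, 212 of 4858 alternative values had another sign, and 0 called values reversed. The signs of LP minus NP and of LPtau minus LP in liver held in all alternatives for the brightest probe sets of Rab30, Crem, Lepr, Klf10, Pde4b and Sik1. Counts over all probe sets moved more. For LP against NP in liver, 556 became 317 with sex as a covariate and 9 to 3685 with 1 array left out. For LPtau against LP in liver, 0 became 12 with 1 probe set per gene, 6 with trend and robust, 5 with only the diets compared, and 0 to 379 with 1 array left out. The liver interaction gave 0 to 12 with 1 array left out. In muscle, LP against NP gave 8 calls, and 1 with the replicate block, 14 with the filter, 23 with 1 probe set per gene, 95 with cyclic loess, 57 with quantile normalization, 2 with sex, 17 with trend and robust, 1 with only the diets compared, and 1 to 287 with 1 array left out. LPtau against LP gave 6 calls, and 0 with the replicate block, 82 with cyclic loess, 58 with quantile normalization, 2 with sex, 0 with only the diets compared, and 0 to 119 with 1 array left out. Of the calls for LP against NP 3 of 8 were higher in LP, against 21 of 95 with cyclic loess and 9 of 57 with quantile normalization, and for LPtau against LP 4 of 6, 67 of 82 and 49 of 58. The muscle interaction gave 0 calls, 1 with the filter, 1 with trend and robust, and 0 to 3 with 1 array left out. The causes were not tested. For the interaction a fit of only the diets compared does not exist, since it uses all 4. With the replicate block, LPtau against NPtau in liver gave 1 call in place of 0, and LP against NP gave 439. Same-numbered arrays had a mean correlation of deviations of 0.0418 in liver and -0.0142 in muscle, above 0.1 in 6 and 7 of 18 pairs. Levels of dim probe sets are close to background, which limits what the muscle values of Rab30 can show.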

Other observations

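The 4 highest Fos values of liver and the 4 highest of muscle were on arrays of the same diet and number. Liver and muscle read 11.19 and 11.00 in NPtau replicate 2, 10.91 and 12.34 in LP replicate 1, 11.02 and 11.06 in LPtau replicate 1, and 10.94 and 10.28 in LPtau replicate 2. The other muscle arrays lay between 8.72 and 9.71. Nr4a1 in muscle was 9.61, 9.28, 9.76 and 9.84 in those 4 arrays, and between 8.61 and 9.88 in the others, with overlap. Whether arrays of the same diet and number in the 2 tissues come from the same pup is not given in the labels.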
